A study of Rattus norvegicus with 36 samples.

Results

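Heat shock proteins of the cytosol, and the chaperones and transcription factors of the unfolded protein response, were followed in rat dorsal root ganglia after ligation of the L5 spinal nerve. The genes are Hspb1, Cryab, Hspa1a, Hspa8, Hspa5, Hsp90b1, Xbp1 and Ddit3. A probe set was taken where the platform annotation gives 1 of these 8 symbols and no other, which gave 21 of 26202 probe sets, 14 on chip A, 1 on chip B and 6 on chip C. Probe sets annotated to one of them and to a further gene were left out, 7 in all: 4 name Hspa1b with Hspa1a, 2 name Haus8l2 with Hspa8, and 1 names Asb2 with Hspb1. Hspa8 therefore has no probe set of its own and no value here. The other 7 genes, of 10969 with a probe set of their own on these arrays, have between 1 and 6.

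The ganglia hold the cell bodies of sensory neurons with their glia, and tying off the L5 spinal nerve in the rat is a model of neuropathic pain. Total RNA of 6 pools was measured on Affymetrix RG_U34 arrays, whose 3 chip types carry different probe sets. The L5 pools held L5 ganglia of rats with the ligated L5 nerve, taken 28 or 50 days after injury. The L4 pools held the neighbouring L4 ganglia of rats operated on in the same way, at the same days. The Sham pools combined the ganglia of both levels from rats given a sham operation, again at 28 or 50 days. A pool is labelled as 30 rats where its number of animals is stated, and strain, sex and age are not. Every pool went onto 2 arrays of each chip type, 36 arrays in all. Each condition has 1 pool at each day, so the 28-day and 50-day pools served as its 2 samples, and p-values here measure the spread between such pools, not between rats. The number of pools limits the precision, since the 2 arrays of a pool share RNA. In whole ganglia, fewer cells of a type and less RNA per cell cannot be told apart, and in comparisons with Sham the ganglion level (L5 or L4 alone against both) cannot be told apart from the injury.

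Cells answer misfolded protein in the cytosol by releasing heat shock factor 1, which binds heat shock elements and raises small heat shock proteins and the Hsp70 family. In the endoplasmic reticulum the chaperone BiP (Hspa5) holds 3 sensors in check. When unfolded proteins occupy BiP, Ire1 splices the mRNA of Xbp1, Atf6 is cut into an active factor, and Perk slows translation and favours Atf4, which in turn induces Ddit3 (CHOP). Hspb1 (Hsp27) is abundant in sensory neurons and is known as a protein that helps injured neurons survive and regrow their axons.

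Promoters are shown for the letters of such elements that stand close before the gene start. RefSeq (build GRCr8) gave a promoter for 7 of the 8 genes (all but Cryab), and the 250 bases before the gene start were searched on both strands. The heat shock element was searched in its 2 arrangements, GAANNTTC and TTCNNGAA, which can overlap one another. The ER stress element was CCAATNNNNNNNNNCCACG, the Atf6 and Xbp1 element TGACGTG and the CHOP and Atf4 element TGATGNAAT. The windows below run 5′ to 3′ on the gene's strand, with the matched letters in capitals, at chr12:26432391-26432442 (minus strand) for Hspb1, chr3:38452869-38453003 (plus) for Hspa5, chr7:23012335-23012481 (minus) for Hsp90b1 and chr14:84604546-84604588 (plus) for Xbp1.
Hspb1: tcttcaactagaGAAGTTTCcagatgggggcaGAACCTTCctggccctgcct
Hspa5: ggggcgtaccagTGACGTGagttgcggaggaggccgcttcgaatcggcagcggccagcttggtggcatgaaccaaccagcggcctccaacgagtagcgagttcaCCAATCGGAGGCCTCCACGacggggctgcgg
Hsp90b1: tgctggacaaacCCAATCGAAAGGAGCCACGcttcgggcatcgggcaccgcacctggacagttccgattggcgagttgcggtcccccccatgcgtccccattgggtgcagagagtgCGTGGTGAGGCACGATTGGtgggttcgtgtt
Xbp1: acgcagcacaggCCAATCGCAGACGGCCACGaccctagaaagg

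The Hspb1 promoter held 2 heat shock elements of the GAANNTTC form, which 7.23% of 33469 rat promoters hold at least once. Hspa8 held 4 matches over both arrangements (TTCNNGAA stands in 7.48% of promoters), but these overlapped in pairs and are not 4 separate elements. One pair stood at 213 to 206 and 208 to 201 bases before the gene start, the other at 55 to 48 and 50 to 43. No heat shock element in these letters stood in the Hspa1a window. The ER stress element stood in 22 of the 33469 promoters (0.0657%), among them Hspa5, Xbp1 and Hsp90b1, the last with a match on each strand. TGACGTG, present in 1.54% of promoters, stood in that of Hspa5 alone among the 7, and TGATGNAAT (0.944% of promoters) in none of them. Ddit3 had no match to any of the motifs. These matches are letters in a window and not measured binding sites.

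Of the 21 probe sets, 17 were bright enough to test and belonged to all 7 genes; the other 4 are described below without a test. No probe set of these genes passed the threshold in any comparison. Differences are on the scale of log2(signal + pseudocount), with the standard error (SE) of a limma fit to the 6 pools, and a probe set passed where its p, adjusted by Benjamini-Hochberg over 15721 probe sets of all 3 chip types, was under 0.05. For L5 against Sham 0 of 17 passed, beside 0.763% of all probe sets tested. For L5 against L4 it was 0 of 17 beside 1.27%, for L4 against Sham 0 of 17 beside 0%, and for day 50 against day 28 over the 3 conditions 0 of 17 beside 0.286%. At an unadjusted p under 0.05 the counts were 4 of 17 for L5 against Sham (16.9% of all probe sets), 1 for L5 against L4 (19.4%), 2 for L4 against Sham (2.72%) and 5 for the days (18.7%).

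Averaged over the 2 days, the differences between L5 and Sham ran from -0.69 to 0.55 over the 17 probe sets, with SEs of 0.17 to 0.30. At 28 days alone they ran from -0.90 to 0.25, and at 50 days alone from -0.95 to 0.94. Over both days their median was -0.10, beside 0.04 for all probe sets tested, and 12 of 17 lay below 0, beside 46.3% of all. The 95% intervals of 13 of the 17 differences excluded a change of 2-fold in either direction, and those of 6 excluded 1.5-fold; the 4 that reached 2-fold were rc_AA998683_at of Hspb1, X60351cds_s_at of Cryab, Z75029_s_at of Hspa1a and U30186_at of Ddit3. Against L4 the L5 differences had a median of 0.05, beside 0.04 for all, and ran from -0.46 to 0.70. L4 against Sham gave a median of -0.16, beside -0.0034 for all, with 14 of 17 below 0 beside 50.6% of all, and all 17 intervals excluded 2-fold. Both comparisons with Sham use the same Sham pools. Taking 1 probe set a gene, its brightest, all 7 genes lay below 0 in L5 against Sham (median -0.20, from -0.48 to -0.07). The same held in L4 against Sham (median -0.21, from -0.50 to -0.11). For Hsp90b1, however, 3 of 5 tested probe sets lay above 0 in L5 against Sham. For Hspb1 it was 1 of 4 and for Hspa5 1 of 2. At 28 days alone the brightest probe sets of Hspb1 (0.11), Hsp90b1 (0.25) and Xbp1 (0.04) lay above 0 in L5 against Sham, the others below.

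**Figure D1:**
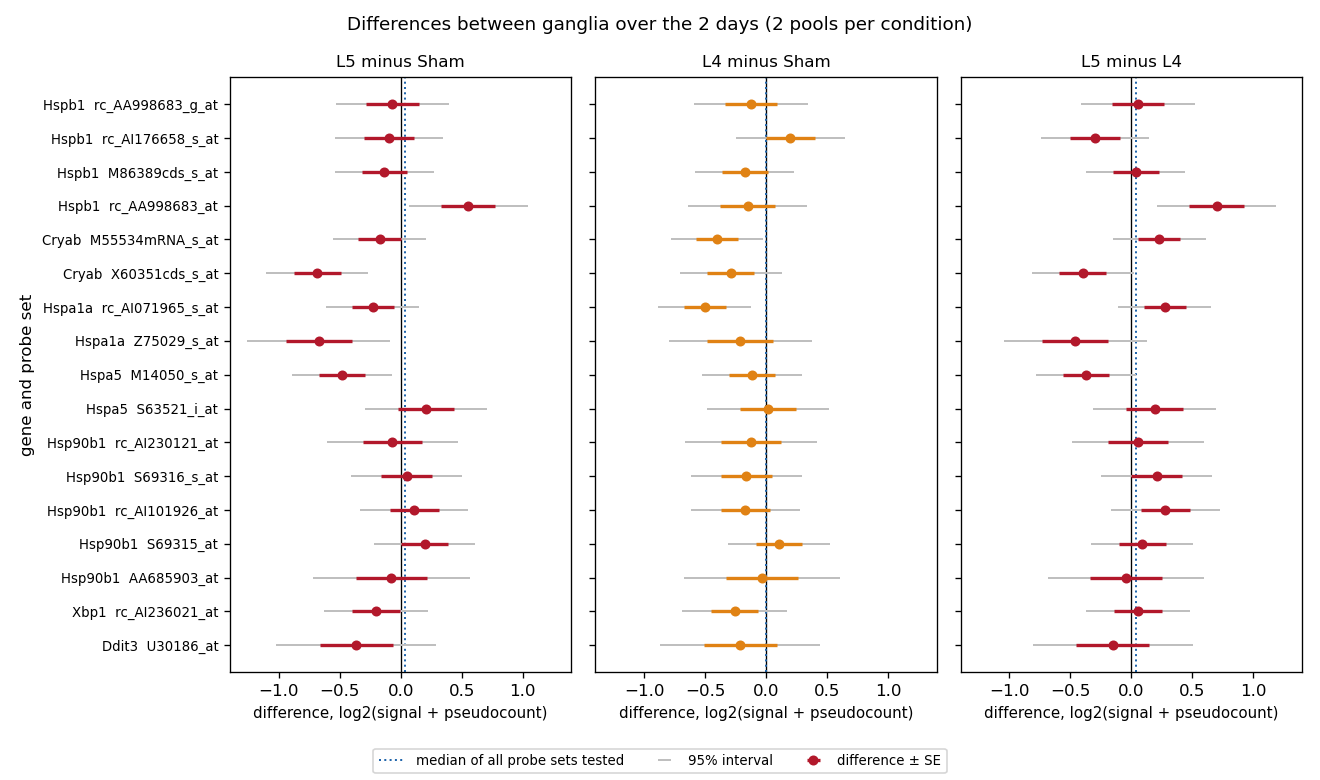
Differences of the 17 tested probe sets (down the page) in L5 minus Sham, L4 minus Sham and L5 minus L4, on the log2(signal + pseudocount) scale, with SE (thick bars) and 95% interval (thin bars), 2 pools per condition; the dotted line is the median of all 15721 probe sets. No point passed the threshold; the farthest below 0 in L5 minus Sham is X60351cds_s_at of Cryab (-0.69) and the farthest above is rc_AA998683_at of Hspb1 (0.55).

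Array-level quality bears on these values. Over the tested probe sets, r between the 2 arrays of 1 pool was 0.880 to 0.958, and the SD between them on the log2 scale had a median of 0.19 over the 17 probe sets (0.07 to 0.39), beside 0.25 over all. One chip B array is titled Sham at 28 days but described as 50 days. It was kept by its title, correlated at 0.952 with its partner and at 0.932 and 0.928 with the 50-day Sham arrays, and bears on 1 probe set of Hsp90b1 and on the chip B genes of the lists. Summed marker signals differed between pools. Each sum covers every marker on the arrays, also those not bright enough to test. Macrophage markers (8 of 10 bright enough, Cd163 and Itgam not) summed to 5554 in L5 at 28 days and 1866 in L5 at 50 days, against 1507 to 1910 in L4 and 1647 to 2026 in Sham. Muscle markers (9 of 10, all bright enough) summed to 3302 and 1789 in L5, against 1454 and 1703 in L4 and 786 and 1726 in Sham, at 28 and 50 days. Satellite glia markers (6 of 7, 5 bright enough, Kcnj10 not) summed to 8617 and 7792 in L5, against 5814 and 6181 in L4 and 6218 and 6185 in Sham. Schwann cell markers (6 of 8, all bright enough) summed to 24352 and 26005 in L5, against 19919 and 21296 in L4 and 20647 and 24358 in Sham. Neuron markers (11 of 12 bright enough, Syt1 not) summed to 35564 and 41337 in L5, against 39055 and 43610 in L4 and 40580 and 47996 in Sham. The median neuron marker was at -0.39 in L5 against Sham at 28 days and at -0.40 at 50 days.

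Hspb1 encodes the small heat shock protein Hsp27, which binds unfolding proteins and actin. On its brightest probe set, rc_AA998683_g_at, the L5 arrays read 4663 and 4612 at 28 days and 3133 and 3167 at 50 days. The L4 arrays read 3374 and 3341, then 4214 and 3835, and the Sham arrays 4021 and 4565, then 3707 and 3789. Both 28-day L5 arrays lay above all other 28-day arrays, and both 50-day L5 arrays below all other 50-day arrays. Over both days the L5 minus Sham difference was -0.07 ± 0.21 (limma, adjusted p = 0.89, n = 2 pools each), with a 95% interval of -0.53 to 0.40.

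The second brightest Hspb1 probe set, rc_AI176658_s_at, read 1746 and 1791, then 1345 and 1263 in L5. It read 1621 and 1724, then 2208 and 1973 in L4, and 1742 and 1421, then 1879.8 and 1496 in Sham. The 28-day L5 arrays were again the highest of their day and the 50-day L5 arrays the lowest of theirs, and the L5 minus Sham difference over both days was -0.10 ± 0.20. M86389cds_s_at ranged from 485 to 609 in L5, 474 to 589 in L4 and 465 to 732 in Sham, at -0.13 ± 0.19.

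The last probe set, rc_AA998683_at, shares its sequence record with the brightest one but differed from it at 50 days. It read 439 and 453 in L5 at 28 days and 894 and 919 in L5 at 50 days. The L4 arrays ranged from 352 to 431 and the Sham arrays from 373 to 468. Both 50-day L5 arrays lay above every other array, and all L5 arrays lay above all L4 arrays, though the 28-day L5 arrays lay inside the Sham range. The L5 minus Sham difference was 0.55 ± 0.22 (limma, adjusted p = 0.24) and the L5 minus L4 difference 0.70 ± 0.22 (adjusted p = 0.13). Fitted without the L5 pool of 28 days the differences were 0.95 (adjusted p = 0.015) and 1.10 (adjusted p = 0.0027), when 3.01% and 4.15% of all probe sets passed. In such a fit, here and below, a condition left with 1 pool adds nothing to the estimate of spread and is assumed to vary like the other conditions, so its p has no replicate of that condition behind it. At 50 days alone this probe set stood at 0.94 in L5 against Sham, while the other 3 Hspb1 probe sets stood at -0.25, -0.36 and -0.34. The probe sets of Hspb1 therefore give no common direction at 50 days.

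Cryab encodes alpha B-crystallin, a small heat shock protein of muscle, glia and lens. Its brighter probe set, M55534mRNA_s_at, read 1949 and 2323, then 1893 and 1659 in L5. It read 1912 and 1617, then 1731 and 1401 in L4, and 2559.9 and 2485, then 1763 and 2055 in Sham. The ranges overlapped at 50 days but not at 28 days, when Sham was the highest pool. The difference was -0.17 ± 0.17 in L5 against Sham (limma, adjusted p = 0.64) and -0.40 ± 0.17 in L4 against Sham (adjusted p = 1.00).

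The other Cryab probe set, X60351cds_s_at, read 474 and 552 in L5 at 28 days and 285 and 494 at 50 days. The L4 arrays read 678 and 529, then 598 and 532, and the Sham arrays 756 and 629, then 732 and 741. All 4 L5 arrays lay below all 4 Sham arrays, 1 of 17 probe sets of these genes to do so in either direction, beside 11.6% of all probe sets whose L5 and Sham arrays did not overlap. L5 against L4 also gave 1 of 17 without overlap (Hspb1, above), beside 14.3% of all, and L4 against Sham gave 0 of 17, beside 3.83%. The L5 minus Sham difference of X60351cds_s_at was -0.69 ± 0.19, or 0.622-fold, the lowest adjusted p of the genes described here in that comparison (limma, adjusted p = 0.12). With 1 pool left out at a time it passed in 3 of 6 fits: without the L5 pool of 28 days (-0.90, adjusted p = 0.021, L5 then being 1 pool; 3.01% of all probe sets passed) and without the 28-day or the 50-day L4 pool (-0.69, adjusted p = 0.036 and 0.034; 2.59% and 2.61% of all passed). It did not pass without the L5 pool of 50 days (-0.47, adjusted p = 0.31) or without the Sham pool of 28 days (-0.86, adjusted p = 0.29) or of 50 days (-0.51, adjusted p = 0.71). Cryab is also a muscle gene, and summed muscle markers stood the other way round at 28 days (3302 in L5 against 786 in Sham). Satellite glia and Schwann cell sums were also higher in L5 than in Sham at both days (above). The median satellite glia marker, however, stood at 0.29 at 28 days and at -0.0035 at 50 days in L5 against Sham. The median Schwann cell marker stood at 0.40 and 0.21. The part of these cells in the Cryab values was not tested.

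Hspa1a encodes the inducible Hsp70. Hspa1b is a near-identical copy whose RNA these probes may also bind, so the values are uncertain between both copies. The brighter probe set, rc_AI071965_s_at, read 366 and 453, then 506 and 465 in L5. It read 264 and 382, then 489.8 and 354 in L4, and 464 and 451, then 543 and 663 in Sham. Sham was the highest pool at both days, and the difference was -0.23 ± 0.17 in L5 and -0.50 ± 0.17 in L4 (limma, adjusted p = 0.52 and 1.00).

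The dimmer Hspa1a probe set, Z75029_s_at, read 47.9 and 49.2 in L5 at 28 days and 172 and 66.6 at 50 days. The L4 arrays read 87.0 and 73.8, then 139 and 138, and the Sham arrays 94.0 and 111, then 162 and 142. In each condition the 50-day mean was above the 28-day mean. The difference between day 50 and day 28 was 0.73 ± 0.22, the lowest adjusted p for the days among these genes (limma, adjusted p = 0.14), and rc_AI071965_s_at stood at 0.33 ± 0.14 (adjusted p = 0.25). In L5 against Sham Z75029_s_at was at -0.67 ± 0.27 (adjusted p = 0.24), with the 28-day L5 arrays below all others and the 50-day L5 arrays on either side of Sham.

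**Figure D2:**
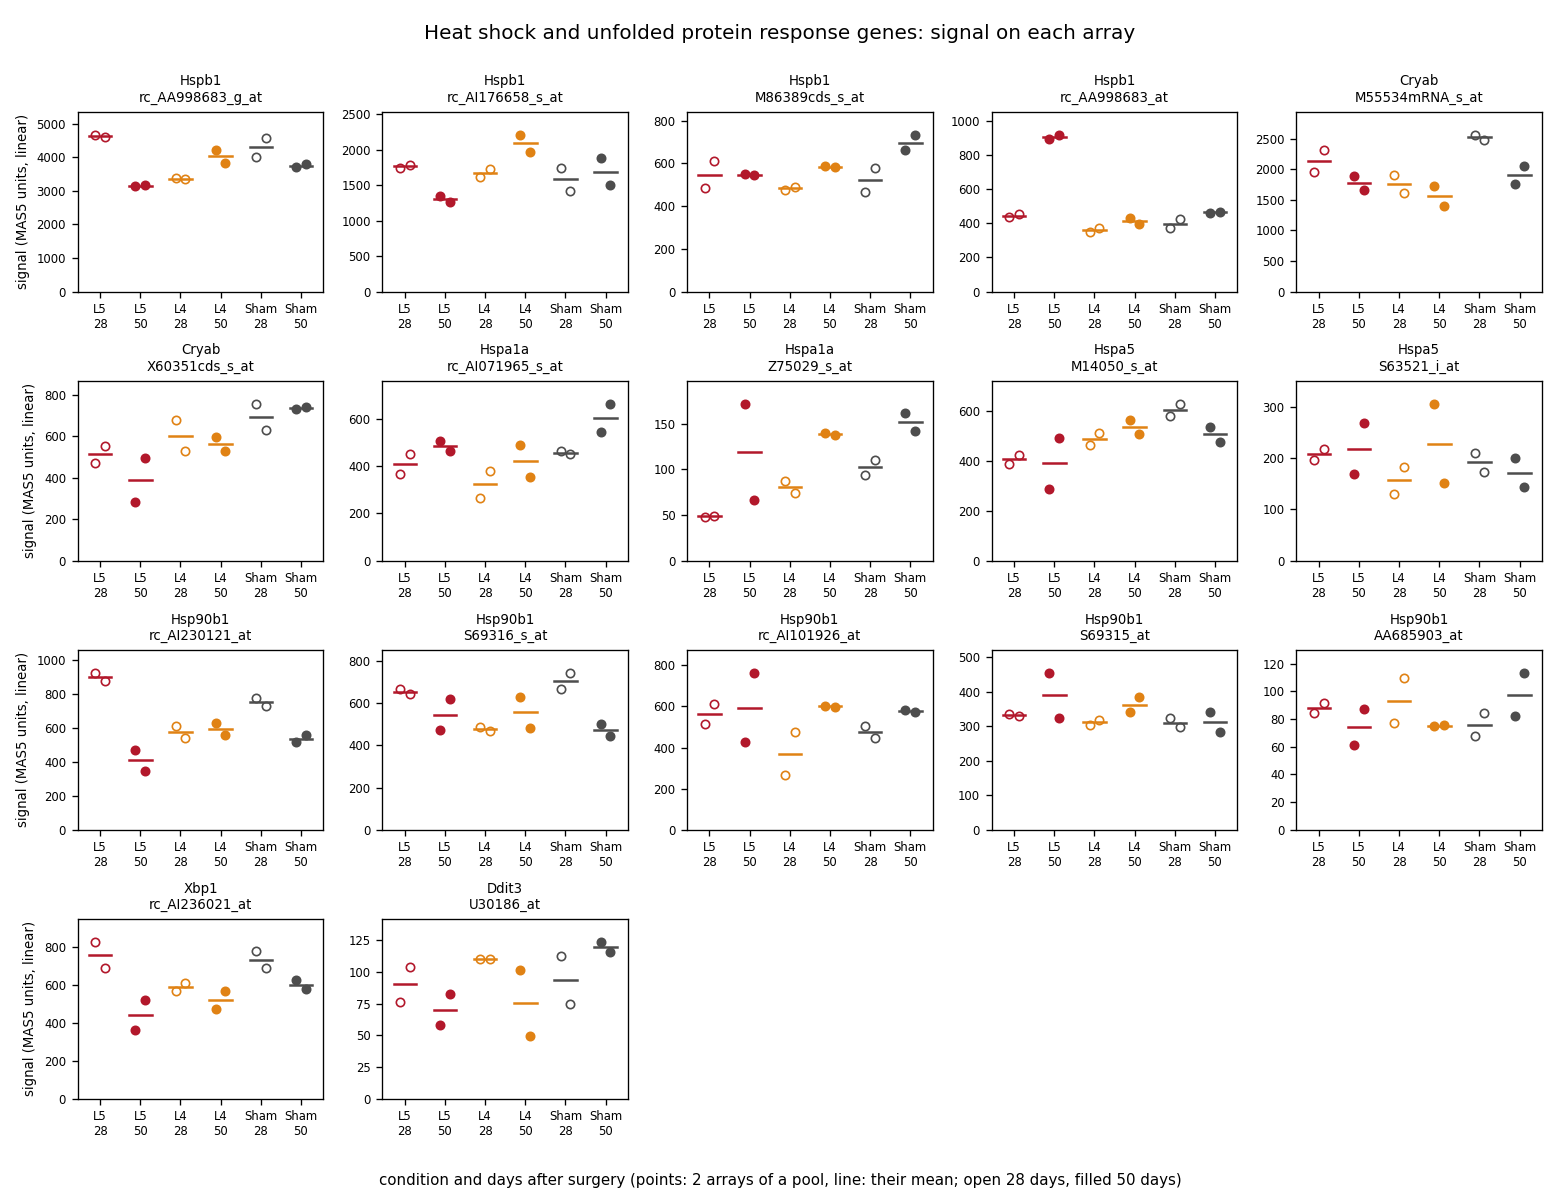
Signal (MAS5 units, linear axis from 0) of the 17 tested probe sets on each array, by condition (L5, L4, Sham) and day (28 open, 50 filled); points are the 2 arrays of a pool and lines their mean. The L5 arrays of 50 days stand at 894 and 919 on rc_AA998683_at of Hspb1, above all other arrays, and the L5 arrays of X60351cds_s_at of Cryab, from 285 to 552, stand below the Sham arrays, from 629 to 756.

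Hspa5 encodes BiP, the Hsp70 of the endoplasmic reticulum. On M14050_s_at the L5 arrays read 387 and 424, then 287 and 490.0. The L4 arrays read 460.3 and 510.4, then 562 and 505, and the Sham arrays 579 and 626, then 533 and 476. L5 was the lowest pool at both days, but the second 50-day L5 array lay above a Sham array. The L5 minus Sham difference was -0.48 ± 0.19, or 0.715-fold (limma, adjusted p = 0.22), and the L5 minus L4 difference -0.37 ± 0.19 (adjusted p = 0.30). S63521_i_at lay on the other side of 0, with 169 to 269 in L5, 130.0 to 306 in L4 and 144 to 211 in Sham, and a difference of 0.21 ± 0.23. The 2 tested Hspa5 probe sets thus disagree in sign. The third, S63521_r_at, was too dim to test, at 0.70 to 19.3 in L5, 0.80 to 22.3 in L4 and 11.1 to 19.4 in Sham.

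Hsp90b1 encodes Grp94, the Hsp90 of the endoplasmic reticulum, which folds integrins and Toll-like receptors. Its brightest probe set, rc_AI230121_at, read 924 and 878 in L5 at 28 days and 473 and 349 at 50 days. The L4 arrays read 612 and 542, then 628 and 556, and the Sham arrays 776 and 733, then 516 and 559.7. The L5 pool was the highest at 28 days and the lowest at 50 days with no overlap. Over both days the L5 minus Sham difference was -0.07 ± 0.24 (limma, adjusted p = 0.91), and day 50 against day 28 stood at -0.52 ± 0.20 (adjusted p = 0.21).

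The other 4 tested Hsp90b1 probe sets lay within 0.20 of 0 in L5 against Sham. S69316_s_at was at 0.05 ± 0.21, rc_AI101926_at at 0.11 ± 0.20, S69315_at at 0.20 ± 0.19 and AA685903_at at -0.08 ± 0.29. S69316_s_at read 670.5 and 642, then 471 and 622 in L5, against 489 and 467, then 631 and 485 in L4 and 666 and 743, then 502 and 443 in Sham. On rc_AI101926_at the 50-day L5 arrays disagreed (427 and 762), as did the 28-day L4 arrays (264 and 475), with 504 and 445, then 584 and 571 in Sham. S69315_at ranged from 326 to 454 in L5, 304 to 384 in L4 and 283 to 342 in Sham. Only the brightest of the 5 had an L5 pool apart from Sham at 50 days. The sixth, rc_AA963782_at on chip B, was too dim to test, at no more than 56.6 in L5, 34.4 in L4 and 27.0 in Sham.

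Xbp1 encodes the transcription factor that Ire1 activates by splicing its mRNA; splicing was not measured here. On rc_AI236021_at the L5 arrays read 825 and 688, then 362 and 522. The L4 arrays read 567 and 608, then 471 and 568, and the Sham arrays 780.3 and 687, then 625 and 576. The 50-day L5 arrays lay below both 50-day Sham arrays, while the 28-day L5 and Sham arrays overlapped. The difference was -0.20 ± 0.19 in L5 and -0.26 ± 0.19 in L4 (limma, adjusted p = 0.62 and 1.00), and -0.41 ± 0.16 for day 50 against day 28 (adjusted p = 0.21).

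Ddit3 encodes CHOP, a transcription factor that favours cell death when stress in the endoplasmic reticulum lasts. U30186_at read 76.3 and 104, then 58.0 and 82.5 in L5. It read 110.3 and 110.0, then 102 and 49.3 in L4, and 112 and 75.1, then 123 and 116 in Sham. The 2 arrays lay far apart in L4 at 50 days and in Sham at 28 days, and both 50-day L5 arrays lay below both 50-day Sham arrays. The L5 minus Sham difference was -0.36 ± 0.30 (limma, adjusted p = 0.56), with a 95% interval of -1.02 to 0.29. AA686470_i_at and AA686470_s_at were too dim to test. They read 11.2 to 155 and 1.80 to 33.6 in L5, 28.2 to 77.1 and 8.40 to 20.1 in L4, and 7.40 to 63.6 and 2.30 to 17.8 in Sham.

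Within a day each condition is a single pool, so differences at 28 or 50 days have no test. At 28 days the median L5 minus Sham difference was 0.07, with 10 of 17 probe sets above 0, and at 50 days it was -0.34, with 4 of 17 above 0; over all probe sets the medians were 0.01 and 0.03. The share at least 1.5-fold apart was 1 of 17 at 28 days (lower in L5), beside 20.2% of all, and 3 of 17 at 50 days (1 higher and 2 lower), beside 23.9% of all. For L4 against Sham it was 0 of 17 at 28 days, beside 9.84%, and 1 of 17 at 50 days (lower), beside 9.67%. Between the days within L5 it was 4 of 17 (2 higher and 2 lower at 50 days), beside 32.3% of all, within L4 2 of 17 (both higher at 50 days), beside 10.7%, and within Sham 0 of 17, beside 14.5%. Without the L5 pool of 50 days, 6 of 17 probe sets lay below 0 in L5 against Sham, at a median of 0.07.

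**Figure D3:**
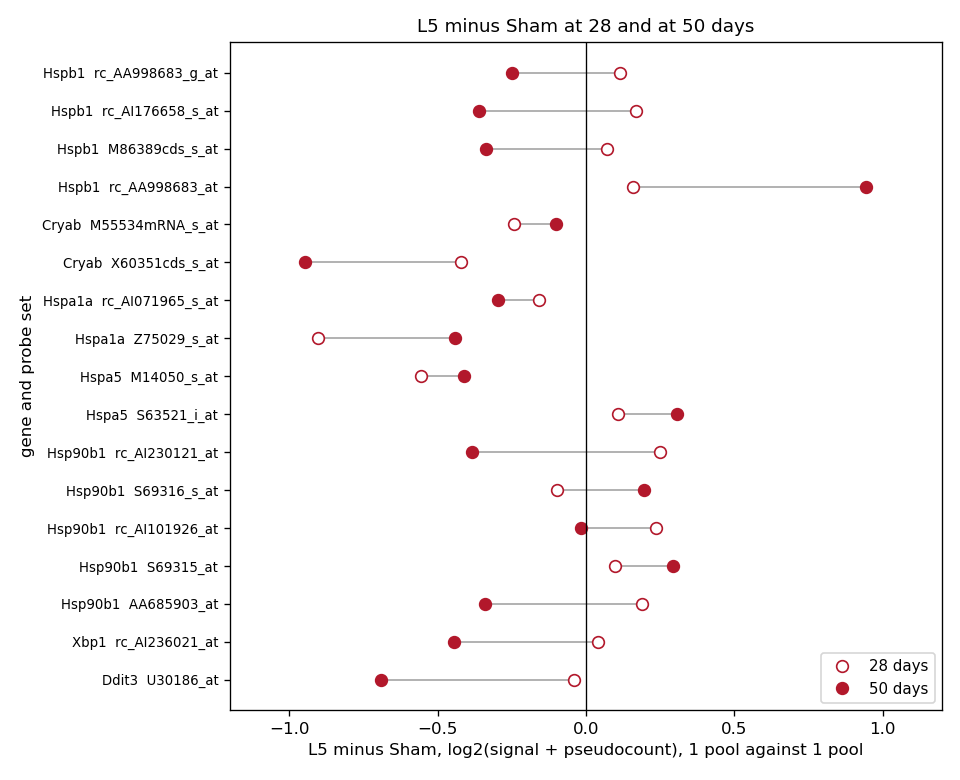
L5 minus Sham for each tested probe set at 28 days (open points) and 50 days (filled points), on the log2(signal + pseudocount) scale, 1 pool against 1 pool at each day. At 50 days 13 of the 17 points lie left of 0, against 7 of 17 at 28 days, and rc_AA998683_at of Hspb1 alone stands near 1 (0.94).

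Other chaperone genes were read from 4 lists, each gene by its brightest tested probe set. The list named cytosolic heat shock held further small heat shock, Hsp70, Hsp90 and Hsp110 genes with co-chaperones and their factors. It also lists the mitochondrial chaperones Hspd1 (Hsp60), Hspe1 and Hspa9, so it is not of the cytosol alone. In this list 0 of 37 tested genes passed in L5 against Sham. The median was -0.31, with 29 of 37 genes below 0, beside 0.04 and 46.3% for all probe sets, which include dimmer ones. With only probe sets above the 60th percentile of mean signal kept, the list median was -0.34, with 28 of 33 below 0. All probe sets then stood at -0.0077, with 50.8% below 0. The genes lay below 0 at both days in 25 of 37 cases, beside 29.3% of all probe sets, and the medians were -0.30 at 28 days and -0.21 at 50 days. L4 against Sham gave a median of 0.02. Scaling by hybridisation controls put the median over all probe sets at -0.43 and that of this list at -0.79. With that scaling 17 of 37 passed, all lower, beside 18.5% of all probe sets. With 12 arrays and the pool as a random block 6 of 37 passed, all lower, beside 7.09% of all. Neuron markers were lower in the same pools (above), and their part in the list's values was not tested.

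Dnajc5, a co-chaperone of synaptic vesicles, read 780.1 and 683, then 549.6 and 576 in L5. It read 1063 and 1027, then 971 and 966 in L4, and 1024 and 1051, then 965 and 971 in Sham. Every L5 array lay below every other array, at -0.63 ± 0.18 in L5 against Sham (limma, adjusted p = 0.11). Bag3, which with Hspb8 routes misfolded protein to autophagy, read 132 to 304 in L5, 342 to 448 in L4 and 316 to 409 in Sham, without overlap, at -0.69 ± 0.20 (adjusted p = 0.13). Hsph1, the Hsp110 that restarts the Hsp70 cycle, read 345 to 652 in L5, 632 to 1019 in L4 and 705 to 890.0 in Sham, at -0.65 ± 0.22 (adjusted p = 0.18). Stub1, the ubiquitin ligase CHIP, which acts on Hsp70 clients, was at -0.80 ± 0.26 (adjusted p = 0.18), with 170.1 and 297 in L5 at 50 days against 683 and 578 in Sham. These values were uneven over the days: at 28 and 50 days Bag3 stood at -0.99 and -0.39, Hsph1 at -1.02 and -0.27 and Stub1 at -0.18 and -1.41. Left with 1 L5 pool, the fit called Bag3 (-0.95, adjusted p = 0.036) and Hsph1 (-1.06, adjusted p = 0.0025) without the 50-day pool, and Stub1 (-1.23, adjusted p = 0.046) without the 28-day pool, when 3.95% and 3.01% of all probe sets passed. Hsph1 also passed without the 28-day or the 50-day L4 pool (-0.65, adjusted p = 0.048 and 0.047), and Dnajc5 without the 50-day one (-0.63, adjusted p = 0.049).

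Of the TRiC chaperonin and prefoldin list, which folds actin and tubulin, 0 of 12 tested genes passed. The median was -0.05 with 7 of 12 below 0, beside 0.04 and 46.3% for all probe sets. Cct2 was at -0.72 ± 0.21 (limma, adjusted p = 0.14), with 749.7 and 230.0 on the 2 arrays of the 50-day L5 pool, which disagree. It stood at -0.32 at 28 days and -1.12 at 50 days, and at -1.09 in the fit without the L5 pool of 28 days. Cct3 was at -0.50 ± 0.19, Pfdn6 at 0.34 ± 0.20 and Pfdn5 at 0.32 ± 0.24.

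In the list of endoplasmic reticulum chaperones and unfolded protein response genes 0 of 62 tested genes passed. Their median was 0.01, with 31 of 62 below 0, beside 0.04 and 46.3% for all probe sets. With 12 arrays and the pool as a random block 3 of 62 passed, all lower, beside 7.09% of all. Herpud1, a target of the response that acts in disposal of misfolded proteins, read 148 to 249 in L5, 206 to 297 in L4 and 296 to 341 in Sham, at -0.74 ± 0.22 (limma, adjusted p = 0.15). The L5 and Sham arrays of Herpud1 did not overlap, and it stood at -0.52 at 28 days and -0.96 at 50 days. Pdia5, a disulfide isomerase, was at -0.94 ± 0.40 with a dim signal of 8.40 and 19.2 in L5 at 50 days, the transcription factor Creb3l2 at 0.72 ± 0.42 and the translocon-associated Ssr1 at -0.58 ± 0.36 (adjusted p = 0.28, 0.42 and 0.44). All 3 stood apart from Sham mainly at 50 days: at 28 and 50 days Pdia5 was at -0.08 and -1.80, Creb3l2 at -0.12 and 1.57, on opposite sides of 0, and Ssr1 at -0.15 and -1.01. With the 28-day L5 pool left out, and L5 thus 1 pool, Herpud1 stood at -1.04, Pdia5 at -1.73 and Creb3l2 at 1.58.

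The integrated stress response list is the arm that shares Atf4 and Ddit3 with the unfolded protein response. It held the only genes of these lists that passed in the fit to the 6 pools. In L5 against Sham 1 of 34 tested genes rose (Atf3) and 1 fell (Chac1), beside 0.763% of all probe sets that passed. In L5 against L4 1 rose (Atf3) and 2 fell (Chac1 and Shmt2), beside 1.27% of all. The median of the list was -0.10 in L5 against Sham, with 24 of 34 below 0, beside 0.04 and 46.3% for all probe sets. No gene passed in L4 against Sham or between the days in any of the 4 lists.

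Atf3, a transcription factor induced by stress and by axon injury, read 531 and 432, then 258 and 374 in L5. It read 189 and 252, then 139 and 143 in L4, and 146 and 161, then 114 and 93.1 in Sham, so that every L5 array lay above every other array. It rose by 1.52 ± 0.21 in L5 against Sham (limma, adjusted p = 0.015) and by 1.08 ± 0.21 against L4 (adjusted p = 0.037). Chac1, an Atf4 and CHOP target that degrades glutathione, read 134 and 85.1, then 84.0 and 74.7 in L5. It read 257 and 204, then 272 and 209.7 in L4, and 171 and 261, then 194 and 266 in Sham, with all L5 arrays below all others. It fell by 1.09 ± 0.21 in L5 against Sham (adjusted p = 0.047) and by 1.17 ± 0.21 against L4 (adjusted p = 0.035). Without the Sham pool of 28 days neither passed against Sham (Atf3 1.49, adjusted p = 0.073; Chac1 -1.21, adjusted p = 0.26), and Chac1 also missed without the Sham pool of 50 days (-0.97, adjusted p = 0.37) or the L5 pool of 50 days (-0.87, adjusted p = 0.062).

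Shmt2, the mitochondrial serine hydroxymethyltransferase, read 12.2 and 59.1, then 30.6 and 90.5 in L5. It read 158 and 164, then 151 and 151 in L4, and 55.0 and 116, then 205 and 116 in Sham. It fell by 1.51 ± 0.28 in L5 against L4 (limma, adjusted p = 0.038), where the arrays did not overlap, and stood at -1.11 ± 0.28 against Sham (adjusted p = 0.099). Without the L4 pool of 28 days neither Atf3 (1.10, adjusted p = 0.068), Chac1 (-1.27, adjusted p = 0.13) nor Shmt2 (-1.13, adjusted p = 0.26) passed against L4, and Chac1 also missed without the L4 pool of 50 days (-1.08, adjusted p = 0.15). The mRNA of Atf4, also a gene of this list, was at -0.05 ± 0.18 in L5 against Sham. Atf4 protein was not measured. Asns (-0.53 ± 0.26), Gadd45a (0.56 ± 0.25), Nupr1 (0.67 ± 0.43) and Jun (0.50 ± 0.35) did not pass. Jun stood at 1.37 at 28 days, when its L5 arrays read 619 and 525 against 199 and 229 in Sham, and at -0.37 at 50 days, when they read 114 and 130.4 against 127 and 203. Without the L5 pool of 50 days, which leaves L5 as 1 pool, Jun stood at 1.35.

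**Figure D4:**
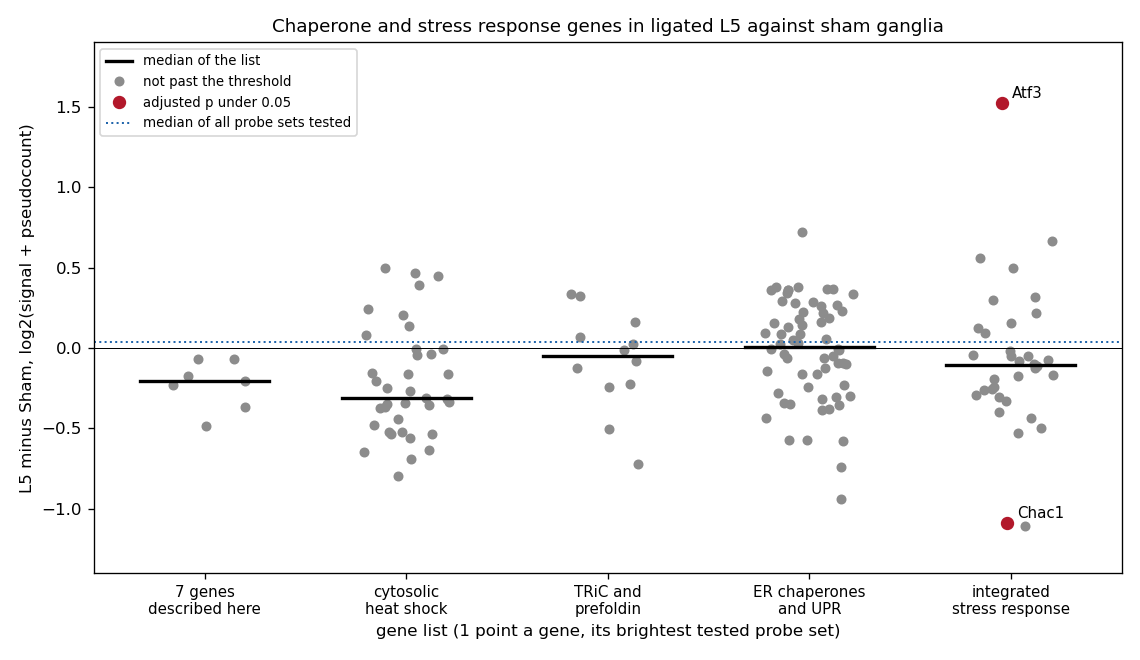
L5 minus Sham of each gene (its brightest tested probe set) in the 7 genes described here and in the 4 gene lists, on the log2(signal + pseudocount) scale, 2 pools per condition; black bars are list medians, the dotted line is the median of all probe sets (0.04), and red points passed the threshold. Atf3 (1.52) and Chac1 (-1.09) are the points that passed, and the cytosolic heat shock list has the lowest median of the 4 lists (-0.31).

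For 4 of the genes the probe sets of other genes whose 6 pool values ran closest were found by Pearson's r; the 6 points are 3 conditions at 2 days, and such values describe these pools only. Hspb1 ran closest to Sfpq (0.988), Olfml1 (0.987) and Kansl1 (0.984), with 135 of 11765 probe sets above 0.9. Cryab ran closest to Tpp1 (0.994), Lyrm2 (0.992) and Med19 (0.983), with 37 of 11767 above 0.9. Hspa5 ran closest to Nrbp2 (0.999), Hyal3 (0.992) and Dhx29 (0.989), with 241 of 11767 above 0.9. Hsp90b1 ran closest to Washc3 (0.993), Tsc22d2 (0.992) and Tes (0.992), with 288 of 11764 above 0.9. None of these 12 genes belongs to the 8 genes or the 4 lists.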

How the data were processed

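The authors deposited linear intensity signals, and the submitters' processing notes name MAS5 without a version. The trimmed mean (2% off each end) of every array lay near 150 (150.07 to 150.21), so levels are relative to an array's mean. Without detection calls, which were not used, a low signal does not mean an absent RNA.

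Arrays were set to a common trimmed mean within a chip type. Signals were taken as log2(signal + pseudocount), the pseudocount being the 20th percentile of a chip type (12.8, 17.7 and 20.2 on A, B and C), which understates folds of dim genes. Probe sets with a mean under the 40th percentile (39.3, 53.6 and 58.8) and control probe sets were left out, leaving 15721. The 2 arrays of a pool, which share RNA, were averaged. limma 3.58.1 in R 4.3.3 fitted condition and day to 6 pools (2 residual degrees of freedom, eBayes with an intensity trend), with Benjamini-Hochberg adjustment over all 3 chip types. The fit was run on simulated pools with independent spread and an L5 shift that was the same at both days. Those simulated data held no condition difference that changed with the day, so they do not cover that case. Because day enters as a shared shift, a condition difference that is unlike at 28 and 50 days widens the residual and lowers the chance of a call.

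Names came from the platform annotation. The members, the 4 lists and the naming rule were chosen with earlier results of these data known: every probe set of the 8 genes is described, and of a list the genes that passed plus up to 4 with the largest L5 minus Sham difference; Atf4 was added after its value was seen. Alternatives covered pseudocount, filter, scaling, array handling, variance prior, day term and each pool left out.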

Additional observations from a re-analysis of the deposited data

Results flagged for a closer look

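Some probe sets lay on one side of the comparison pool on both arrays at 28 days and on the other side on both at 50 days. With 1 pool a day, the difference between the days was not tested in any of them. Among all tested probe sets 6.33% did so for L5 against Sham, 8.87% for L4 against Sham and 7.94% for L5 against L4. Hspb1 rc_AA998683_g_at stood at 0.11 at 28 days and -0.25 at 50 days in L5 minus Sham, at -0.35 and 0.10 in L4 minus Sham, and at 0.46 and -0.35 in L5 minus L4. Hspb1 rc_AI176658_s_at stood at 0.17 and -0.36 in L5 minus Sham and at 0.080 and -0.67 in L5 minus L4. Hsp90b1 rc_AI230121_at stood at 0.25 and -0.38 in L5 minus Sham and at 0.63 and -0.52 in L5 minus L4. The dim Hsp90b1 rc_AA963782_at, which was not among the tested probe sets, stood at -0.39 and 1.33 in L5 minus Sham.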

How the results depend on the processing

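Under 20 alternatives (19 for the days) the 17 probe sets gave no reversed call. Their sign changed without a call in 22 of 339 values for L5 minus Sham, 26 of 339 for L4 minus Sham, 31 of 339 for L5 minus L4 and 21 of 322 for the days. Calls among them, 0 in all comparisons above, were 3 for L5 minus Sham with hybridisation-control scaling (Cryab X60351cds_s_at -1.18, Hspa1a Z75029_s_at -1.11, Hspa5 M14050_s_at -0.98) and 4 for L5 minus L4 (those 3 and Hspb1 rc_AI176658_s_at at -0.95), when the median of all probe sets was -0.43 and -0.64 and 18.5% and 42.7% of them were called. With 12 arrays and the pool as a random block, 1 was called in L5 minus Sham (Cryab X60351cds_s_at), 1 in L5 minus L4 and 1 for the days (both Hspb1 rc_AA998683_at), beside 7.09%, 8.83% and 6.56% of all probe sets. Leaving out 1 pool gave 0 to 2 for L5 minus Sham, 0 to 1 for L5 minus L4 and 0 for L4 minus Sham and the days. Array numbers 1 and 2 are technical and do not pair the pools: same-numbered arrays deviated together at r = -0.10 to 0.11. With the array number added as a replicate block, 1 was called in L5 minus Sham and 1 in L5 minus L4, with 977, 0, 1186 and 796 calls over all probe sets (L5 minus Sham, L4 minus Sham, L5 minus L4, days).

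Counts over all probe sets depended strongly on the setting. For L5 minus Sham, 120 in the report, they were 31 without a filter, 41 with quantile normalization, 250 with median centring (43 higher and 207 lower), 2906 with hybridisation controls (33 higher), 0 and 2 with the first or second array alone, 1114 with the random block, 3 without the intensity trend, 0 without the day term and 12 to 621 with a pool left out. For L4 minus Sham, 0 in the report, they were 6 with hybridisation controls, 1 with the random block and 0 to 11 with a pool left out. For L5 minus L4, 199 in the report, they were 19, 53, 371, 6710, 0, 0, 1388, 0 and 0 under the same 9 settings, and 98 to 784 with a pool left out. For the days, 45 in the report, they were 23 without a filter, 15 with quantile normalization, 291 with hybridisation controls, 2 and 5 with the first or second array, 1031 with the random block, 0 without the trend and 69 to 422 with a pool left out. The cause was not tested. The call of Atf3 in L5 minus Sham held in 15 of 20 alternatives and that of Chac1 in 10 of 20. In L5 minus L4 the calls of Atf3 and Chac1 held in 12 of 20 each and that of Shmt2 in 12 of 19. With the first or second array alone, Shmt2 was at -2.11 or -0.92 in L5 minus L4 and Chac1 at -0.67 or -1.51 in L5 minus Sham, none of them called.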
